A study of Mus musculus with 16 samples.

Results

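Beta-oxidation shortens fatty acids from the carboxyl end and yields acetyl-CoA, and it runs in mitochondria and in peroxisomes. The genes described here encode the enzymes and carriers of both routes, together with acyl-CoA synthetases that activate fatty acids before either route. Rows of the count table were matched by gene identifier to a list of 36 gene symbols, and all 36 were found among 55385 genes. The list holds 4 acyl-CoA synthetases, 18 mitochondrial members, 11 peroxisomal members, and 3 members whose products are found in both compartments. The rule uses gene symbols and no threshold on a measured value, although the list was chosen with earlier results of these data known.

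RNA-Seq was performed on male C57BL/6 mice acquired at 12 weeks of age, in liver, kidney, heart, lung, spleen, muscle and both white and brown adipose, 8 tissues in total. The fed group ate ad libitum, and the fasting group went without food for 24 h. Tissue of 3 mice was pooled per group and gave 1 library for each tissue and treatment, 16 libraries in all, so no value of a single tissue has a replicate error. The question addressed here is which beta-oxidation genes differed between the fasting and fed libraries of each tissue, and whether the mitochondrial and the peroxisomal route differed alike.

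In mitochondria, long-chain acyl groups enter as carnitine esters made by the CPT1 enzymes, and each cycle then uses an acyl-CoA dehydrogenase, a hydratase, a hydroxyacyl-CoA dehydrogenase and a thiolase. Peroxisomes import acyl-CoA through ABC transporters, start the cycle with an oxidase, and hand shortened chains on as carnitine esters. Many genes of both routes are known targets of the nuclear receptor PPAR-alpha, which fatty acids activate in liver during fasting.

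The library totals ranged from 14245178 to 36069968 counts, so that 3 counts correspond to between 0.0832 and 0.211 CPM, the count of a gene scaled by the total of its library. Each tissue held the defining markers of its label. For example, the summed level of 10 hepatocyte markers was 117698 CPM in the fed liver library, and that of 7 cardiomyocyte markers was 50602 CPM in the fed heart library. Some libraries also held markers of other cell types at levels that differed between treatments. In the fasting white adipose library, a kidney tubule list of 8 genes summed to 750.5 CPM against 69.9 CPM in the fed library. Nearly all of this difference was *Lrp2*, at 709.6 CPM against 34.9 CPM. A lung epithelium list of 7 genes reached 129.4 CPM there against 3.52 CPM, of which *Foxj1* made up 125.7 CPM, while 2 of the 7 were at 0. The adipocyte list was 32558 CPM fasting against 40654 CPM fed, of which *Car3* made up 9775 and 15526 CPM. The B cell list was 86.8 CPM fasting against 351.4 CPM fed. The pancreatic acinar list was 611.1 CPM in the fed and 11.8 CPM in the fasting spleen library, and 122.1 and 272.1 CPM in liver. In lung, fed and fasting, the cardiomyocyte list was 1209 and 602.8 CPM, the B cell list 504.6 and 255.8 CPM, the kidney tubule list 352.8 and 206.6 CPM and the adipocyte list 311.8 and 494.0 CPM. In liver, the adipocyte list was 4479 and 576.9 CPM, of which *Car3* made up 4385 and 281.5 CPM. The part of these lists in the spleen, lung and liver values below was not tested. In bulk tissue, fewer cells of a type and less RNA per cell cannot be told apart.

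The number of counts a gene can collect depends on how far its sequence is its own. *Cpt1b* shares 81.4% of its exon bases with *Gm44502* on the same strand, and it held 1143 counts in all 16 libraries together. Reads on shared bases may not have been assigned to it, so its levels may be low by an unknown amount. *Etfb* shares 53.0% of its exon bases with *Gm45233*, 52.8% of the stretches of 100 bases in *Hadhb* recur in *Gm13910*, and *Acaa1a* and *Acaa1b* have 360 such stretches in common. *Acadvl* overlaps *Dvl2* on the opposite strand over 42.9% of its exon bases. Values of these genes are uncertain to that extent.

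The tissues differed far more in the level of these genes than the fed and fasting libraries did. Levels of different genes are compared here per length, as TPM, in which each count is divided by the exon length of its gene before scaling. The summed TPM of the mitochondrial members was highest in brown adipose, at 16947 (fed) and 16980 (fasting), followed by heart at 9990 and 11552. It was lowest in spleen, at 441.4 and 538.4. Of the 18 mitochondrial members, 16 had their highest mean TPM in brown adipose, whereas 8 of the 11 peroxisomal members were highest in liver and 2 in kidney. These means include the fasting libraries. Values overlapped those of the next tissue for *Hsd17b4*, *Acaa1a*, *Abcd3*, *Crot* and *Pex11a* (liver), *Ehhadh* (kidney) and *Etfdh* (brown adipose). In the fed libraries, *Acaa1a* (79.6 against 75.4 TPM) and *Pex11a* (45.9 against 38.6 TPM) were higher in brown adipose than in liver. *Abcd2*, a transporter of very long-chain acyl-CoA into peroxisomes, was highest in white adipose.

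The most abundant single member differed by tissue. *Acaa2*, the mitochondrial thiolase, led in brown adipose (3837 TPM fed, 3120 fasting) and in heart (1866 TPM fed, 2021 fasting). *Acadvl*, the very long-chain acyl-CoA dehydrogenase, led in muscle, at 333.5 TPM fed and 353.3 fasting. In liver the leading member was the peroxisomal thiolase *Acaa1b* in the fed library, at 1204 TPM, and the peroxisomal bifunctional enzyme *Ehhadh* in the fasting library, at 2237 TPM. In kidney *Ehhadh* led in both, at 742.6 TPM fed and 2560 TPM fasting. 

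**Figure D1:**
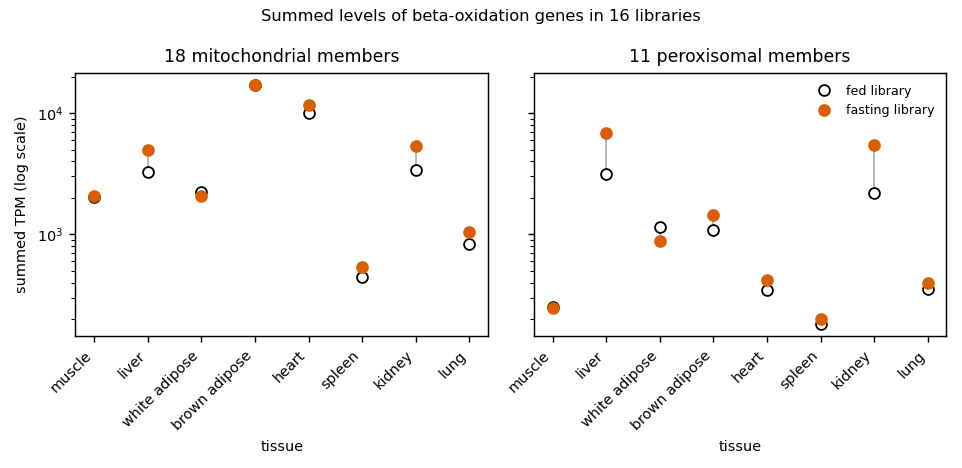
Summed TPM (log axis) of the 18 mitochondrial members (left) and the 11 peroxisomal members (right) in each tissue, with the fed library as an open and the fasting library as a filled circle. The fasting libraries of liver and kidney lie above the fed ones in both panels, and brown adipose and heart have the highest mitochondrial sums.

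Peroxisomal transcripts made up 49.3% of the summed TPM of both routes in the fed liver library and 57.9% in the fasting one. In kidney this share was 39.4% fed and 50.4% fasting. The share was 5.98% and 7.81% in brown adipose and 3.36% and 3.52% in heart. It was lower in the fasting library in the remaining tissues, namely muscle (10.95% fed, 10.6% fasting), white adipose (34.0% and 29.9%), spleen (29.3% and 27.0%) and lung (29.9% and 27.8%). 

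*Ehhadh* and *Acaa1b*, singled out after their values were seen, together made up more of the peroxisomal TPM in the fasting libraries of liver and kidney. These genes held 49.4% of the peroxisomal TPM in fed liver and 64.1% in fasting liver, and 45.3% and 66.0% in kidney. Without them the peroxisomal share was 33.0% fed and 33.1% fasting in liver, and 26.2% and 25.6% in kidney. As the genes were picked for their values, this is a description and not a test. In liver *Ehhadh* went from 354.9 to 2237 TPM and *Acaa1b* from 1204 to 2177 TPM. The part of *Acaa1b* in the summed TPM of both routes was not larger in the fasting liver library.

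Within each tissue, the fasting library was compared with the fed library on CPM, and a gene was called when its log2 fold change (log2FC, fasting over fed, pseudocount 0.01 CPM) exceeded 0.5 in size with an unadjusted Fisher p under 0.01. With 1 library per group this compares the libraries, not the conditions. Liver and kidney had by far the largest shares of members called as higher. In liver, 21 of 35 members tested (60.0%) were higher and 3 were lower, where 7.34% of all genes tested were higher and 15.8% lower. In kidney, 22 of 36 (61.1%) were higher and 2 lower, against 4.48% and 6.23% of all genes. Of the members called as higher, 19 were shared by both tissues, which is 90.5% of the liver members and 86.4% of the kidney members.

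The other tissues had few calls. In heart 5 of 36 members were higher and none lower (7.01% and 9.65% of all genes). The adipocyte list was 1552 CPM in the fasting and 627.7 CPM in the fed heart library, with 2 and 1 of its 10 genes at 0, and the hepatocyte list 113.3 against 30.2 CPM. The part of these markers in the heart values was not tested. In brown adipose 5 of 36 were higher and 3 lower (8.68% and 12.2%). In lung 5 of 35 were higher and none lower (4.23% and 10.1%).

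White adipose had 7 of 35 members higher and 2 lower, where 19.8% and 9.23% of all genes were called, so its share of higher members was near the background. In muscle 2 of 35 were higher and 2 lower (7.8% and 16.4%). In spleen 2 of 34 were higher and none lower (3.62% and 2.33%). Members not tested in a tissue were *Cpt1b* in liver, white adipose, spleen and lung and *Acox2* in muscle and spleen, all below 1 CPM in both libraries.

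The split of calls in muscle and white adipose moved with the scaling. In muscle it was 4 higher and 1 lower with TMM factors (11.7% and 10.7% of all genes), and 5 and 1 with DESeq2's size factors (12.9% and 9.52%). In white adipose it was 6 higher and 4 lower with TMM factors (18.1% and 11.1%), and also with DESeq2's size factors (17.7% and 11.6%).

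**Figure D2:**
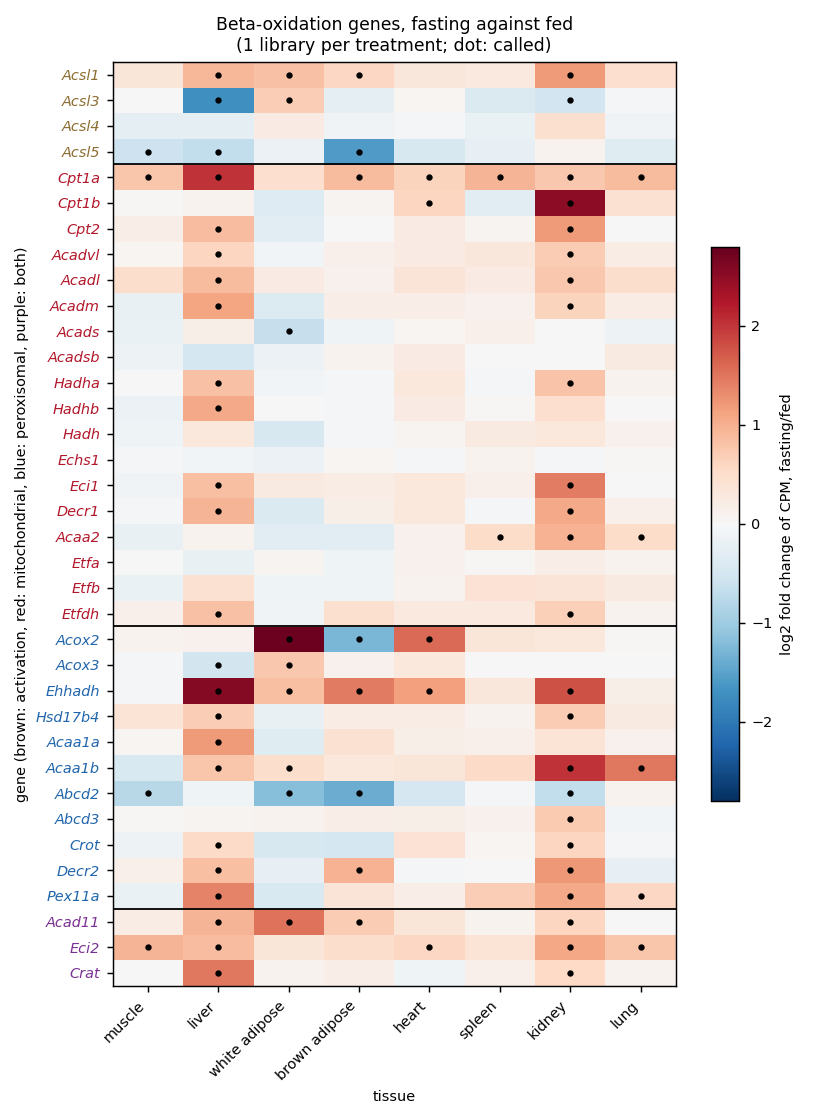
Log2 fold change of CPM (fasting over fed, colour scale) of each of the 36 members (rows, grouped by role) in each of the 8 tissues (columns), with a dot where the gene was called. The liver and kidney columns hold 24 called genes each, and the rows of Abcd2 (6 tissues with TMM) and Acsl5 are lower in 7 of 8 tissues.

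The calls fell on both routes in liver and kidney. In liver, 10 of 17 mitochondrial members tested and 7 of 11 peroxisomal members were called as higher (7.34% of all genes), and in kidney 11 of 18 and 7 of 11 (4.48%). The counts were smaller elsewhere. In white adipose they were 0 of 17 and 4 of 11 (19.8% of all genes), in brown adipose 1 of 18 and 2 of 11 (8.68%), in heart 2 of 18 and 2 of 11 (7.01%), and in lung 2 of 17 and 2 of 11 (4.23%). In muscle and spleen no peroxisomal member was called as higher, with 1 of 18 and 0 of 10 in muscle (7.8%) and 2 of 17 and 0 of 10 in spleen (3.62%). With TMM factors, *Hsd17b4* was also called as higher in muscle and *Pex11a* in spleen.

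The median log2FC was then taken over each route. In liver the medians were 0.83 for 17 mitochondrial members tested and 0.69 for 11 peroxisomal members, beside -0.13 for all genes tested. In kidney they were 0.69 and 0.71, beside -0.06. In heart they were 0.23 and 0.21, beside -0.07. 

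The medians were 0.06 and 0.21 in brown adipose (all genes -0.03), 0.13 and 0.11 in spleen (-0.02), and 0.11 and 0.09 in lung (-0.09). In muscle they were -0.05 and -0.04 (all genes -0.14). White adipose alone had both medians below that of all genes, at -0.13 and -0.21 beside 0.07. The peroxisomal median of white adipose became 0.09 when the 3 members of both compartments were counted with it. Members of a route are not replicates, so the difference between the routes was not tested. 

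Normalization by TMM moved the median of all genes from -0.14 to -0.0082 in muscle and from -0.13 to -0.0044 in liver. With it, the muscle medians of the mitochondrial and peroxisomal members became 0.08 and 0.10, and those of liver 0.95 and 0.81.

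**Figure D3:**
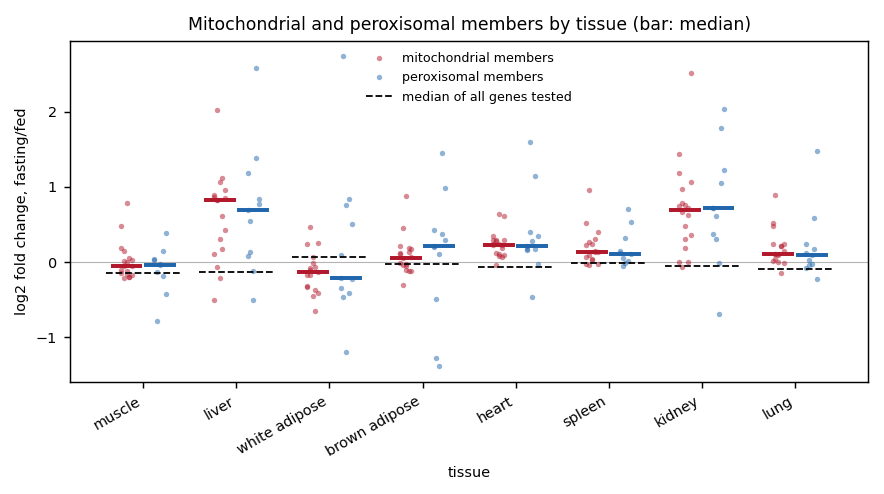
Log2 fold change (fasting over fed) of each mitochondrial (red) and peroxisomal (blue) member tested in each tissue; thick bars are medians and dashed lines the median of all genes tested. The medians of both routes are above 0.6 in liver and kidney and within 0.3 of 0 elsewhere.

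To find members that differed in the same direction across tissues, edgeR's quasi-likelihood test was run on the 16 libraries with tissue as a block, and p-values were adjusted by Benjamini-Hochberg over 17296 genes. One pool of mice supplied all fed tissues and another all fasting tissues, so these p-values measure the spread between tissues. 4 of 36 members rose and none fell, whereas 2.31% of all genes rose and 2.08% fell. At an unadjusted p under 0.05, 13 of the 36 members were higher and 2 lower, where 10.6% and 13.1% of all genes were. DESeq2's Wald test with adjustment called 8 members as higher and 0 as lower, adding *Etfdh*, *Acad11*, *Acaa1b* and *Ehhadh*, and 5.2% and 6.09% of all genes. The median log2FC over the members was 0.31, beside -0.01 for all genes.

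*Cpt1a* (chromosome 19, 3322334 to 3385733, GRCm38) encodes the carnitine palmitoyltransferase that controls the entry of long-chain acyl groups into mitochondria in liver and most other tissues. Its level in the fed and fasting library was 355.9 and 1439 CPM in liver, 562.4 and 951.6 CPM in kidney, 137.0 and 255.0 CPM in lung, and 106.4 and 206.8 CPM in spleen. It was 121.2 and 167.7 CPM in white adipose, 74.1 and 114.8 CPM in heart, 22.7 and 41.8 CPM in brown adipose, and 11.6 and 20.0 CPM in muscle. *Cpt1a* was higher in the fasting library in all 8 tissues and was called in 7, with white adipose (log2FC 0.47) below the threshold. Across tissues it rose with a log2FC of 0.96 ± 0.16 (standard error; edgeR's quasi-likelihood test, adjusted p = 0.016; higher in 8 of 8 tissues).

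*Eci2* (chromosome 13, 34977748 to 35027096) encodes an enoyl-CoA isomerase that brings double bonds of unsaturated acyl chains into position, in mitochondria and peroxisomes. Its fed and fasting levels were 172.0 and 312.7 CPM in liver, 162.5 and 241.1 CPM in heart, 150.7 and 211.1 CPM in brown adipose, and 106.8 and 225.3 CPM in kidney. They were 83.9 and 106.9 CPM in white adipose, 48.3 and 82.7 CPM in lung, 42.7 and 82.1 CPM in muscle, and 35.0 and 45.3 CPM in spleen. It was the member with the smallest p, higher in 8 of 8 tissues with a log2FC of 0.72 ± 0.11 (standard error; edgeR's quasi-likelihood test, adjusted p = 0.010). In muscle, where few members were called, *Eci2* had the largest rise (log2FC 0.94), followed by *Cpt1a* (0.79). It was called in liver, heart, kidney, lung and muscle, and in brown adipose only with TMM factors or DESeq2's size factors.

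*Acsl1* (chromosome 8, 46471037 to 46536051) encodes the long-chain acyl-CoA synthetase that predominates in adipose tissue, liver and heart. Its fed and fasting levels were 2807 and 4182 CPM in brown adipose, 1593 and 3047 CPM in liver, 1330 and 1649 CPM in heart, and 1013 and 1783 CPM in white adipose. They were 328.9 and 756.9 CPM in kidney, 283.9 and 359.2 CPM in muscle, 102.6 and 141.4 CPM in lung, and 49.7 and 60.5 CPM in spleen. All 8 tissues were higher in the fasting library, and liver, white adipose, brown adipose and kidney were called, with lung added by TMM factors and lung and muscle by DESeq2's size factors. The log2FC across tissues was 0.66 ± 0.12 (standard error; edgeR's quasi-likelihood test, adjusted p = 0.022).

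*Acadl* (chromosome 1, 66830839 to 66863277) encodes the long-chain acyl-CoA dehydrogenase. Its fed and fasting levels were 1741 and 1890 CPM in brown adipose, 702.4 and 896.0 CPM in heart, 182.7 and 306.6 CPM in kidney, and 137.8 and 255.4 CPM in liver. They were 116.0 and 137.0 CPM in white adipose, 107.2 and 150.0 CPM in muscle, 67.2 and 94.0 CPM in lung, and 41.3 and 48.2 CPM in spleen. It was higher in 8 of 8 tissues, mostly by less than 0.5 on the log2 scale, and was called in liver and kidney, and also in muscle and lung with TMM factors or DESeq2's size factors. Its log2FC across tissues was 0.48 ± 0.11 (standard error; edgeR's quasi-likelihood test, adjusted p = 0.038). *Cpt1a* and *Eci2* passed the threshold with any 1 tissue left out. *Acsl1* did not pass without muscle, brown adipose or lung (edgeR, adjusted p between 0.052 and 0.055), nor without both adipose tissues (0.081). *Acadl* did not pass without muscle, liver, brown adipose, heart, kidney or lung (edgeR, adjusted p between 0.052 and 0.095).

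**Figure D4:**
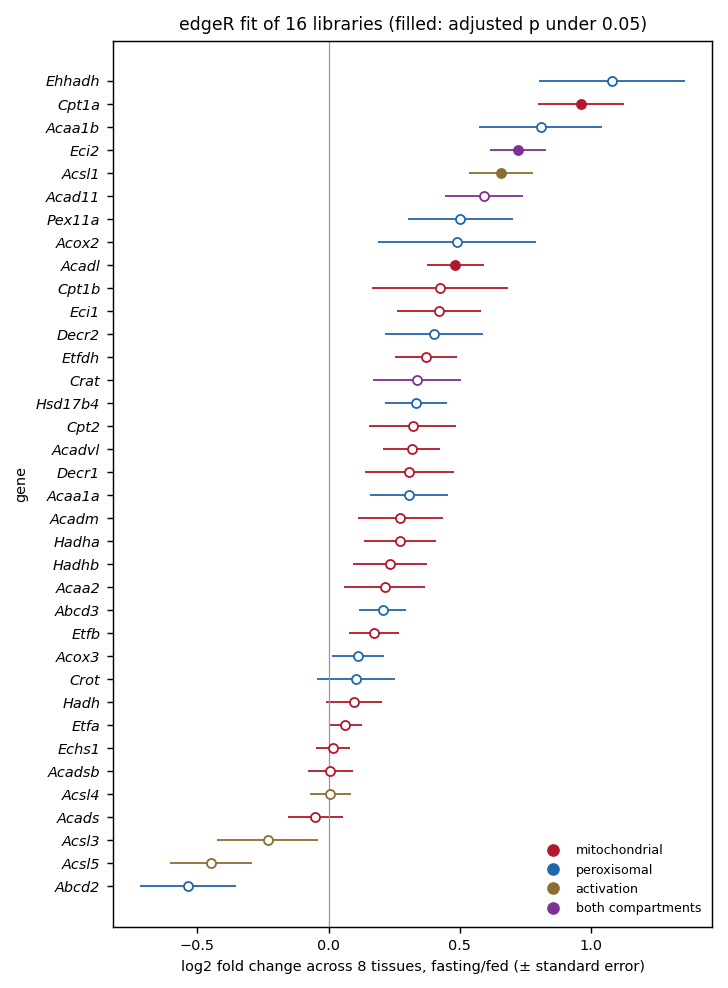
Log2 fold change across 8 tissues (fasting over fed) of the 36 members from the edgeR fit of 16 libraries, with bars of 1 standard error; filled circles have an adjusted p under 0.05. Cpt1a, Eci2, Acsl1 and Acadl are filled; Ehhadh has the largest estimate and a wide error.

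The promoters of the members were read from RefSeq (GRCm38.p6) as windows from 250 bases before to 50 bases after the annotated start. Windows were found for 30 of the 36 members, 33 windows in all. *Cpt1b*, *Decr1*, *Acaa2*, *Hsd17b4*, *Abcd2* and *Crat* had no entry. PPAR-alpha is known to bind repeats of the letters AGGTCA spaced by 1 base. Those letters, on either strand, occurred in 4 windows, those of *Acadm*, *Acadvl*, *Cpt1a* and *Echs1*, or 12.1% against 16.3% of 32851 windows of the same length. The direct repeat, AGGTCA followed by any 1 base and AGGTCA again, occurred in 0 of 33 (0.0396% of all windows), and the looser repeat of AGGNCA with the same spacing, which includes it, also in 0 of 33 (0.381%). A match is a description of these letters, and the lack of one says only that they are not in this window. The windows of *Cpt1a* and *Eci2*, which had the smallest p across tissues, and of *Ehhadh*, which had the largest log2FC across tissues, are printed 5′ to 3′ on the gene's strand. Capitals mark AGGTCA on either strand, found at position -94 of *Cpt1a* as its reverse complement and not in the windows of *Eci2* and *Ehhadh*. The first is chr19:3323051-3323350 (+ strand), the next chr13:34994095-34994394 (- strand) and the last chr16:21787785-21788084 (- strand).
Cpt1a: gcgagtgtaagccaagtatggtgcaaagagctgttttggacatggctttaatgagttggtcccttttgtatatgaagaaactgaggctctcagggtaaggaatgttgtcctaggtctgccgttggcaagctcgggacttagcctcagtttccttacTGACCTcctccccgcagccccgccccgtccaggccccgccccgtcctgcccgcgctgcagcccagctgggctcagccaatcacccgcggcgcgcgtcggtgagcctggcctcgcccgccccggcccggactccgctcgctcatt
Eci2: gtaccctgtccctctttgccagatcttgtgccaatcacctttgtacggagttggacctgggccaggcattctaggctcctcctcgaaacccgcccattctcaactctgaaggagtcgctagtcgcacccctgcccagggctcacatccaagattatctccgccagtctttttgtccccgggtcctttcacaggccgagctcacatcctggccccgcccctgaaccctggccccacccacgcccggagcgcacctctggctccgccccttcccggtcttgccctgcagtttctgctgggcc
Ehhadh: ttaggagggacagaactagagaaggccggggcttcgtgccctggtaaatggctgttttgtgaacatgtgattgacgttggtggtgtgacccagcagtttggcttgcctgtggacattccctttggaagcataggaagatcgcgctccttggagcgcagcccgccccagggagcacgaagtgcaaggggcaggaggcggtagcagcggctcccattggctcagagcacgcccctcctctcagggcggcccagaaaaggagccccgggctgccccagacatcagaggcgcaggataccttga

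*Hadha* and *Hadhb*, which encode the subunits of the mitochondrial trifunctional protein, have RefSeq starts 273 bases apart on opposite strands of chromosome 5. In the annotation used for counting, *Hadha* reaches 30155162 and *Hadhb* begins at 30155248, so these genes lie closer there. Their windows have 228 of 300 bases in common, marked by capitals in the window of *Hadhb* at chr5:30155003-30155302 (+ strand), shown because the pair share this stretch.
Hadhb: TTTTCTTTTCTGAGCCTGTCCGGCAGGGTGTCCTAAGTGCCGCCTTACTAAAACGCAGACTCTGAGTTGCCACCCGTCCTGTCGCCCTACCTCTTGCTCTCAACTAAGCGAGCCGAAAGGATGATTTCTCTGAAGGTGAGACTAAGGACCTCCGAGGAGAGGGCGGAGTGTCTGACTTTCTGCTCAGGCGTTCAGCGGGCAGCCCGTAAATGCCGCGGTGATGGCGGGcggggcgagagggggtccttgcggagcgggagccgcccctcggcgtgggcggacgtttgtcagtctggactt

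None of the remaining acyl-CoA synthetases rose across tissues. *Acsl5* was lower in the fasting library in 7 of 8 tissues and called in brown adipose (391.1 to 129.9 CPM, log2FC -1.59), liver (549.7 to 341.3 CPM, -0.69) and muscle (7.601 to 5.07 CPM, -0.58). Its log2FC across tissues was -0.45 ± 0.16 (standard error; edgeR's quasi-likelihood test, adjusted p = 0.12). The muscle call was lost with TMM factors. *Acsl3* was lower in liver (36.1 to 10.9 CPM, -1.72) and in kidney (39.7 to 27.3 CPM, -0.54, lost with TMM factors), and higher in white adipose (15.1 to 24.2 CPM, 0.68). *Acsl4*, which prefers arachidonate, was called in no tissue, and its log2FC ranged from -0.26 in muscle to 0.44 in kidney, where it was called as higher with DESeq2's size factors.

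Per length, *Acsl1* took a larger share of the summed TPM of the 4 synthetases in the fasting library of all 8 tissues. The share was 51.5% fed and 76.2% fasting in liver, 43.5% and 62.5% in kidney, and 72.9% and 90.1% in brown adipose. In spleen and lung *Acsl1* held only 9.20% and 9.23% when fed, and 12.7% and 13.95% when fasted, and *Acsl5* led there. The share of *Acsl5* was smaller in the fasting library in all 8 tissues, from 38.3% to 18.4% in liver and from 21.9% to 6.03% in brown adipose.

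Of the carnitine palmitoyltransferases, *Cpt1b* is the form of muscle, heart and brown adipose. It was highest in brown adipose, with 15.1 CPM fed and 15.9 CPM fasting, then heart (6.74 and 10.3 CPM, called, log2FC 0.61) and muscle (3.32 and 3.39 CPM). A skeletal muscle fibre list of 10 genes summed to 3058 CPM in the fed and 1396 CPM in the fasting brown adipose library, and its part in the brown adipose values was not tested. Kidney had 9 counts fed and 60 counts fasting (0.40 and 2.33 CPM), a log2FC of 2.51 with a 95% counting interval from 1.52 to 3.73. The other tissues were below 1 CPM in both libraries, at 0.52 and 0.56 CPM in liver, 0.52 and 0.40 CPM in white adipose, 0.88 and 0.72 CPM in spleen, and 0.63 and 0.86 CPM in lung. 

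The share of *Cpt1a* in the TPM of both forms shows how much the shared exons matter. In fed muscle it was 60.6% with the whole exon length of each gene and 22.3% with the exon length that no other gene shares, of which *Cpt1b* has 628 bases. In fed brown adipose it was 39.9% and 10.99%, and in fed heart 82.9% and 47.5%. On either length it was higher in the fasting library in muscle (72.2% and 32.6%) and brown adipose (53.8% and 17.8%). In heart it hardly moved (83.1% and 47.8%), and in liver, kidney, spleen, lung and white adipose it was above 90% on both lengths. *Cpt2*, the inner membrane enzyme that returns the acyl group to CoA, was called in liver (128.2 to 233.4 CPM, 0.86) and kidney (125.4 to 285.8 CPM, 1.19) only.

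Of the acyl-CoA dehydrogenases, those for long and medium chains were called in liver and kidney. *Acadm*, for medium chains, was higher in liver (306.0 to 661.3 CPM, log2FC 1.11) and kidney (909.4 to 1399 CPM, 0.62), and *Acadvl* in liver (368.8 to 563.4 CPM, 0.61) and kidney (301.0 to 494.2 CPM, 0.72). *Acads*, for short chains, was not called in either, at 0.17 and -0.00 on the log2 scale, and was lower in white adipose (100.7 to 64.0 CPM, -0.65). *Acadsb*, for short branched chains, was called in no tissue and ranged from -0.50 in liver to 0.25 in lung.

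*Hadha* was called in liver (387.5 to 687.3 CPM, 0.83) and kidney (228.9 to 395.4 CPM, 0.79). *Hadhb* was called in liver (154.7 to 323.6 CPM, 1.06) and reached 0.48 in kidney, where it was called with TMM factors. In the other 6 tissues both stayed between -0.16 and 0.29. *Hadh* and *Echs1*, the hydroxyacyl-CoA dehydrogenase and the enoyl-CoA hydratase that act on shorter chains, were called in no tissue, although *Hadh* was called as lower in white adipose with TMM factors or DESeq2's size factors. *Echs1* varied least of all members, between -0.17 and 0.10.

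*Acaa2* was not called in liver, at 726.5 CPM fed and 783.0 CPM fasting (log2FC 0.11). It was called in kidney (171.1 to 336.6 CPM, 0.98), in spleen (30.4 to 43.4 CPM, 0.51, lost with a pseudocount of 1) and in lung (78.6 to 112.2 CPM, 0.51). 

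The mitochondrial enzymes for unsaturated chains were called in liver and kidney. *Eci1*, a mitochondrial enoyl-CoA isomerase, was higher in kidney (59.7 to 162.1 CPM, 1.44) and liver (98.4 to 177.4 CPM, 0.85). *Decr1*, the mitochondrial dienoyl-CoA reductase, was higher in kidney (226.5 to 472.1 CPM, 1.06) and liver (189.7 to 367.9 CPM, 0.96). Both kept between -0.41 and 0.30 in the other tissues.

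Of the genes that pass electrons on to the respiratory chain, *Etfdh*, the dehydrogenase of the electron transfer flavoprotein, was called in liver (314.6 to 557.4 CPM, 0.83) and kidney (237.1 to 377.4 CPM, 0.67). The subunits of the flavoprotein itself, *Etfa* and *Etfb*, were called in no tissue, with log2FC from -0.21 to 0.19 and from -0.18 to 0.42. With TMM factors or DESeq2's size factors *Etfb* was called as higher in liver.

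On the peroxisomal side, *Ehhadh* (chromosome 16, 21761287 to 21787807) had the largest log2FC of any member in liver. Its level went from 445.5 CPM fed to 2658 CPM fasting in liver (2.58), from 767.6 to 2645 CPM in kidney (1.78), and from 141.5 to 386.3 CPM in brown adipose (1.45). It was also called in heart (21.8 to 48.3 CPM, 1.15) and white adipose (56.8 to 101.8 CPM, 0.84). It was not called in spleen (12.5 to 15.7 CPM), lung (13.9 to 15.7 CPM) or muscle (9.76 to 9.47 CPM). The log2FC across tissues was 1.08 ± 0.28 (standard error; edgeR's quasi-likelihood test, adjusted p = 0.054; higher in 7 of 8 tissues), just short of the threshold.

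The thiolases *Acaa1a* and *Acaa1b* (chromosome 9, 119339676 to 119350299 and 119148023 to 119157093) are close relatives with different patterns. *Acaa1b* went from 994.5 to 1702 CPM in liver (0.78), from 172.2 to 704.3 CPM in kidney (2.03), from 34.8 to 49.2 CPM in white adipose (0.50), and from 6.22 to 17.3 CPM in lung (1.47). These were called, in white adipose at the threshold and not with TMM factors or a pseudocount of 1. It was 23.1 and 28.2 CPM in brown adipose, 2.16 and 3.13 CPM in spleen, 1.80 and 2.29 CPM in heart, and 1.83 and 1.36 CPM in muscle.

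*Acaa1a* was called in liver only, from 140.2 to 318.7 CPM (log2FC 1.18). Its fed and fasting levels were 107.6 and 139.2 CPM in kidney, 118.8 and 160.0 CPM in brown adipose, 105.5 and 83.3 CPM in white adipose, and 88.6 and 96.6 CPM in lung. They were 60.6 and 67.0 CPM in spleen, 55.7 and 62.7 CPM in heart, and 26.5 and 27.4 CPM in muscle. Per length, *Acaa1b* held 94.1% of the TPM of both genes in fed liver and 92.3% in fasting liver, 78.3% and 91.9% in kidney, and 13.6% and 28.7% in lung. In muscle, heart and spleen its share was below 14%. Across tissues *Acaa1b* had a log2FC of 0.81 ± 0.23 (standard error; edgeR's quasi-likelihood test, adjusted p = 0.074; higher in 7 of 8 tissues).

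The peroxisomal oxidases were not called as higher in liver or kidney. *Acox2*, which acts on branched chains and bile acid precursors, was 275.5 and 301.6 CPM in liver and 156.4 and 192.6 CPM in kidney, neither called. Its calls came from tissues with few counts: 22 and 174 counts in white adipose (log2FC 2.73, 95% counting interval 2.10 to 3.46), 16 and 43 counts in heart (1.59, 0.74 to 2.53) and 51 and 18 counts in brown adipose (-1.27, -2.14 to -0.48). *Acox3* was lower in liver (44.5 to 31.3 CPM, -0.51, lost with TMM factors) and higher in white adipose (73.1 to 123.7 CPM, 0.76).

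*Acox2* and *Acad11*, an acyl-CoA dehydrogenase of mitochondria and peroxisomes (163.5 to 465.6 CPM, 1.51), had the largest rises in white adipose. There the kidney tubule list was 750.5 CPM fasting against 69.9 CPM fed, and the lung epithelium list also differed. Nearly all of the difference in the tubule list was 1 gene, *Lrp2* (709.6 against 34.9 CPM). The part of these markers in the white adipose values was not tested. The members over 10 times higher in fed kidney than in fed white adipose were *Acox2*, *Ehhadh* and *Crot*. Without them, 5 of 32 members tested (15.6%) were called as higher and 2 as lower in white adipose. Of all genes, from which no such genes were left out, 19.8% and 9.23% were called. The shares are therefore not comparable, and no conclusion is drawn from this unplanned filter. *Acad11* was also called in liver (421.2 to 809.5 CPM, 0.94), brown adipose (367.5 to 605.7 CPM, 0.72) and kidney (309.7 to 471.5 CPM, 0.61). Its log2FC across tissues was 0.59 ± 0.15 (standard error; edgeR's quasi-likelihood test, adjusted p = 0.051; higher in 7 of 8 tissues).

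Of the transporters, *Abcd2* was lower in the fasting library in 7 of 8 tissues (6 with TMM), and called in white adipose (1025 to 448.0 CPM, log2FC -1.19), brown adipose (202.7 to 77.8 CPM, -1.38), muscle (89.3 to 52.0 CPM, -0.78) and kidney (3.70 to 2.29 CPM, -0.69, lost with DESeq2's size factors). The adipocyte list was also lower in the fasting library of white adipose (40654 to 32558 CPM) and of brown adipose (18535 to 16980 CPM). In white adipose, *Car3* alone went from 15526 to 9775 CPM. In brown adipose, *Fabp4*, the highest gene of the list there, rose from 5741 to 6627 CPM. The part of this list in the *Abcd2* values was not tested. Across tissues the log2FC of *Abcd2* was -0.54 ± 0.18 (standard error; edgeR's quasi-likelihood test, adjusted p = 0.11). *Abcd3*, which imports branched and long-chain acyl-CoA, was called in kidney only (453.3 to 747.8 CPM, 0.72) and had 876.2 and 924.9 CPM in liver (0.08).

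**Figure D5:**
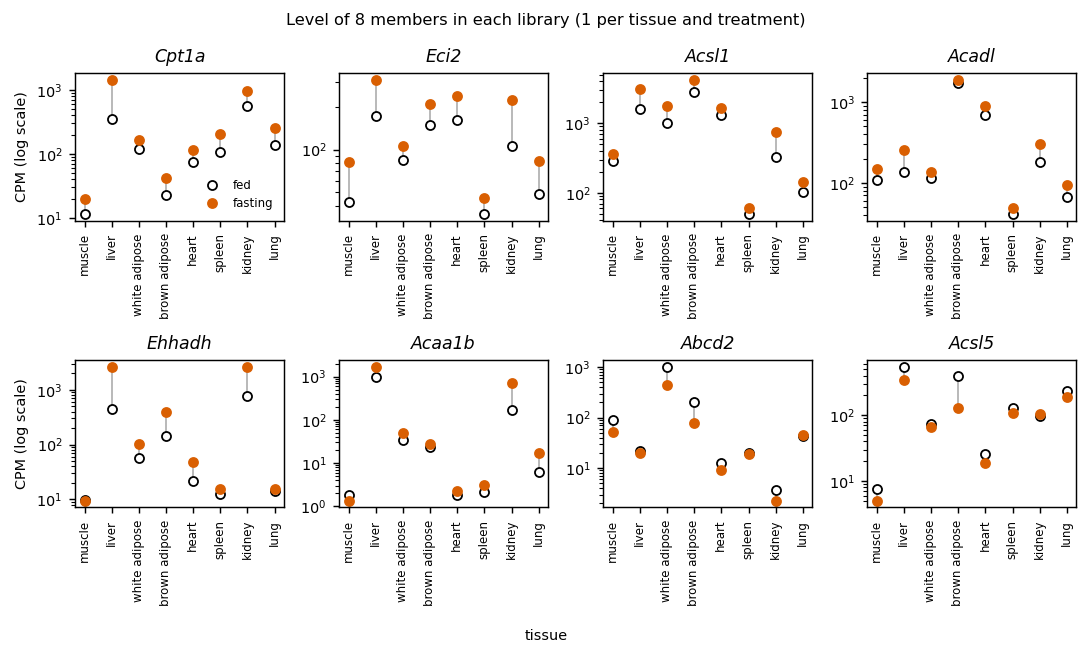
Level (CPM, log axis) of 8 members in the fed (open) and fasting (filled) library of each tissue, 1 library per point. Cpt1a, Eci2, Acsl1 and Acadl are higher in the fasting library in all 8 tissues, and Abcd2 (6 with TMM) and Acsl5 are lower in 7.

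The rest of the peroxisomal members were called as higher in both liver and kidney. These were *Hsd17b4*, the bifunctional enzyme for branched and very long chains (498.4 to 801.6 CPM in liver, 0.69, and 264.5 to 433.4 CPM in kidney, 0.71), and *Crot*, the octanoyltransferase that makes exported carnitine esters (1033 to 1508 CPM, 0.55, and 740.9 to 1128 CPM, 0.61). *Crot* was called as lower in white adipose with TMM factors or DESeq2's size factors. *Decr2*, the peroxisomal dienoyl-CoA reductase, was higher in liver (195.0 to 348.3 CPM, 0.84), kidney (60.5 to 141.0 CPM, 1.22) and brown adipose (59.7 to 118.0 CPM, 0.98). *Pex11a*, which takes part in the division of peroxisomes, was higher in liver (51.7 to 134.8 CPM, 1.38), kidney (35.4 to 73.5 CPM, 1.05) and lung (9.95 to 14.9 CPM, 0.58). *Crat*, the carnitine acetyltransferase of both compartments, was higher in liver (57.8 to 161.4 CPM, 1.48) and kidney (169.8 to 250.4 CPM, 0.56), and between -0.12 and 0.18 in the other 6 tissues.

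Whether the change of a member in 1 tissue lay outside the changes in the other 7 was tested for each tissue in turn with edgeR's quasi-likelihood test, adjusted by Benjamini-Hochberg. No member passed in any of the 8 tests. Of all genes, 0.295% passed for liver, 3.82% for white adipose, 0.052% for muscle and 0.00578% for brown adipose, and 0% for heart, spleen, kidney and lung. At an unadjusted p under 0.05 there were 10 members for liver, 8 for white adipose, 7 for kidney, 1 for brown adipose and 0 for the remaining tissues. Of all genes, this held for 9.93% for liver, 13.3% for white adipose, 2.08% for kidney, 5.98% for brown adipose, 7.46% for muscle, 3.76% for heart, 1.86% for spleen and 1.8% for lung. DESeq2's Wald test with adjustment called 5 members for liver (*Acsl3*, *Crat*, *Hadhb*, *Acaa1a* and *Cpt1a*), 4 for white adipose (*Hadh*, *Acads*, *Echs1* and *Acox2*), 1 for brown adipose (*Acsl5*), 1 for kidney (*Abcd3*) and 0 for the others. Of the genes to which it gave an adjusted p, it called 2.18% for liver, 7.67% for white adipose, 0.749% for brown adipose, 0.466% for kidney, 1.55% for muscle, 0.386% for heart, 0.0962% for spleen and 0.0423% for lung. For kidney these were only 2574 genes, of which 12 were called, and 29 of the members, and in the other tests between 11920 and 21266 genes, with 35 members for brown adipose, 35 for heart and 36 for the rest. 

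The nearest to the threshold were *Acads* and *Acox2* in white adipose and *Crat* in liver. The fasting effect of *Acads* in white adipose differed from that in the other 7 tissues by -0.80 ± 0.20 on the log2 scale (standard error; edgeR's quasi-likelihood test, adjusted p = 0.062). That of *Acox2* in white adipose was 2.42 ± 0.62 higher (adjusted p = 0.067 by the same edgeR test), on 22 and 174 counts. That of *Crat* in liver was 1.44 ± 0.26 higher (adjusted p = 0.070 by the same edgeR test). For *Cpt1a* in liver the excess was 1.34 ± 0.25 (edgeR, adjusted p = 0.083), where its log2FC was 2.02 in liver and between 0.47 and 0.96 in the other 7 tissues.

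Related genes outside the list were tested in the same fit. Of 15 peroxisome assembly genes, 0 rose and 0 fell across tissues in the edgeR test and *Pex16* had a log2FC of 0.25. At an unadjusted p under 0.05, 4 of the 15 were higher and 1 lower (10.6% and 13.1% of all genes), and DESeq2 called 2 as higher and 1 as lower (5.2% and 6.09% of all genes). In liver 3 of the 15 were called as higher (7.34% of all genes), and in kidney 0 (4.48%). Of 14 other peroxisomal enzymes, *Ephx2*, an epoxide hydrolase, rose (0.71 ± 0.13, standard error; edgeR, adjusted p = 0.022) and *Far1*, which makes fatty alcohols for ether lipids, fell (-0.29 ± 0.06, adjusted p = 0.036). *Cat*, catalase, had 0.59 ± 0.17 (edgeR, adjusted p = 0.080). That is 1 of 14 higher and 1 lower in the edgeR test (2.31% and 2.08% of all genes), 3 and 1 at an unadjusted p under 0.05 (10.6% and 13.1%), and 2 and 1 with DESeq2 (5.2% and 6.09%), which called *Cat* and *Ephx2* as higher and *Far1* as lower. In liver 2 of the 14 were called as higher and 3 as lower (7.34% and 15.8% of all genes), and in kidney 3 and 1 (4.48% and 6.23%).

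Of 17 further mitochondrial acyl-CoA genes, 2 rose across tissues in the edgeR test and 0 fell (2.31% and 2.08% of all genes). These were *Mlycd*, malonyl-CoA decarboxylase, which removes the inhibitor of the CPT1 enzymes (0.59 ± 0.11, standard error; adjusted p = 0.023), and *Acad10* (0.48 ± 0.10, adjusted p = 0.034). *Slc22a5*, the carnitine transporter of the cell membrane, had the largest value (0.76 ± 0.22, edgeR, adjusted p = 0.073). At an unadjusted p under 0.05, 4 of the 17 were higher and 0 lower (10.6% and 13.1% of all genes), and DESeq2 called 4 as higher, *Slc22a5* among them, and 0 as lower (5.2% and 6.09%). In liver 5 of 15 tested were called as higher (7.34% of all genes), and in kidney 1 of 16 (4.48%).

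Of 9 regulators, 0 passed across tissues in the edgeR test (2.31% of all genes rose and 2.08% fell). The acetyl-CoA carboxylases, which make malonyl-CoA, had the largest values, *Acaca* at -0.73 ± 0.21 and *Acacb* at 0.59 ± 0.19 (standard errors; edgeR, adjusted p = 0.072 and 0.10). At an unadjusted p under 0.05, 1 regulator was higher and 1 lower (10.6% and 13.1% of all genes), and DESeq2 called *Acacb* as higher and *Acaca* as lower (5.2% and 6.09%). Within single tissues regulators were called in both directions. In muscle 1 of the 9 was higher and 5 were lower (7.8% and 16.4% of all genes), also with TMM factors, with a median log2FC of -0.77. In liver 3 were higher and 3 lower (7.34% and 15.8%), or 3 and 2 with TMM factors, and in white adipose 3 and 2 (19.8% and 9.23%), or 3 and 3. In heart 2 were higher and 2 lower (7.01% and 9.65% of all genes), or 2 and 1 with TMM factors. In brown adipose 1 was higher and 2 lower (8.68% and 12.2%), or 1 and 1 with TMM factors. The counts were 1 and 2 in kidney (4.48% and 6.23%), 1 and 0 in spleen (3.62% and 2.33%), and 1 and 0 in lung (4.23% and 10.1%).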

How the data were processed

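Strand-specific RNA-Seq libraries of 8 tissues under 2 treatments, 16 in all, were analysed. Per the labels and the study's methods, the authors used fastp 0.23.2 and FastQC 0.11.8 for reads of 100 base pairs, HISAT2 2.2.1.0 for alignment on GRCm38, and featureCounts (Subread 2.0) with GENCODE mouse release 24 for counting. The deposited values are unnormalized counts per gene, and the authors' table also holds each gene's exon length (an other value, not a measurement). The strand setting of the counting is not given in the sources used here. Totals ranged from 14245178 to 36069968. Intervals and the floor of 3 counts cover counting error only.

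CPM used library totals, and TPM used the deposited lengths. Genes reaching 1 CPM in either library of a tissue were compared by two-sided Fisher's exact test and called at a log2FC above 0.5 in size and an unadjusted p under 0.01, the study's own thresholds. Across tissues, the quasi-likelihood test of edgeR 4.0.16 (R 4.3.3) used a tissue block and a treatment term, TMM factors and the filterByExpr filter, with 7 residual degrees of freedom; the threshold was a Benjamini-Hochberg adjusted p of 0.05. The test of 1 tissue against the other 7 added a term for that tissue, with 6 residual degrees of freedom. Standard errors were derived from the F statistic. DESeq2 1.42.0 served as an alternative. The Fisher calls in liver, the edgeR fit across tissues and the edgeR test of liver against the other 7 were tried on simulated counts. Python 3.11.15 with scipy 1.17.1, numpy 2.4.6, pandas 2.3.3 and matplotlib 3.10.9 served for the rest.

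The members, the 4 related lists and the 10 marker lists were chosen with earlier results of these data known. Named are all members, with values in every library for those called across tissues and for the pairs *Cpt1a*/*Cpt1b* and *Acaa1a*/*Acaa1b*, the 2 largest rises and falls per tissue among called members, and of each related list the genes called across tissues and the 2 largest changes; a gene that this rule selects is not reported here. A few further genes, such as marker genes that lead a list, were named after their values were seen.

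Alternatives were another pseudocount, TMM factors, a fold threshold of 1, edgeR's exact test at a set coefficient of variation (0.2), DESeq2, no filter, no tissue block, and each tissue left out. No library was left out of the main fits.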

Additional observations from a re-analysis of the deposited data

How the results depend on the processing

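With edgeR's exact test at an assumed coefficient of variation of 0.2 in place of Fisher's test, the members called fell to 7 in liver, 8 in kidney, 3 in white adipose, 3 in brown adipose, 2 in heart, 1 in lung, 0 in muscle and 0 in spleen (of all genes 5.86%, 1.93%, 12.4%, 5.15%, 3.49%, 2.53%, 4.8% and 1.12% in the same order). With a log2FC above 1, they were 8 in liver, 10 in kidney, 3 in white adipose, 4 in brown adipose, 2 in heart, 1 in lung, 0 in muscle and 0 in spleen (8.85%, 3.53%, 15.4%, 8.4%, 6.04%, 4.57%, 8.29% and 2.09%). A pseudocount of 1 left 1 in spleen, losing *Acaa2* (5.08%). Across tissues, DESeq2 called 8 members, among them all 4 of the edgeR fit, and the fit without the tissue block called 0, with 0 at an unadjusted p under 0.05. With 1 tissue left out, between 2 (without muscle, brown adipose or lung) and 4 members were called. In the test of 1 tissue against the others, library totals called 1 member for white adipose, and DESeq2 called 5 for liver, 4 for white adipose, 1 for brown adipose and 1 for kidney. Why these counts differed was not tested. The other 68 values of these counts under an alternative stayed within 1.5 times in total, although the split into higher and lower members moved. With DESeq2's size factors it was 24 and 0 in kidney, where *Acsl3* and *Abcd2* were lost as lower, and 22 and 2 in liver, where *Acox3* was lost. The log2FC across tissues of *Cpt1a*, *Eci2*, *Acsl1* and *Acadl* stayed above 0 under all 14 alternatives. Intervals cover counting error only, and the spread between mice cannot be estimated from pools. The tissue block pairs the fed and fasting library of a tissue; the labels number no replicates to pair further.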
